A study of Rattus norvegicus with 6 samples.

Results

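Of the 34001 genes of a rat pancreas RNA sequencing table, 10 antioxidant genes were followed: Nqo1, Gclc, Gclm, Txnrd1, Srxn1, Gpx1, Gpx2, Sod1, Sod2 and Cat. They were chosen by symbol, 9 under their own name and 1, Srxn1, under the contig name AABR07054319.1, whose description gives sulfiredoxin and the NCBI gene number of Srxn1. The libraries came from the pancreas of 6 outbred Sprague-Dawley rats, 2 in each of 3 groups. Rats of the TP+hucMSC-Exs group had traumatic pancreatitis, made by crushing the gland with an impactor (3 cm2, 10 kg), and received exosomes of human umbilical cord mesenchymal stem cells into the tail vein at 10 μg per 100 g. Rats of the TP group had the same crush and 1 ml of saline. Control rats had a laparotomy in which the pancreas was turned with swabs, and 1 ml of saline. Pancreas was collected 24 h after the operation. The strain and anaesthesia were shared by all 3 groups, and the labels used here name neither age nor sex. Values are TPM, transcript levels divided by gene length and scaled to the same total of 1000000 in each library, which keep no depth, so the number of reads behind a value is unknown and low values may rest on few reads.

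NRF2 (gene Nfe2l2) is a transcription factor that KEAP1 holds at a low level in resting cells. Oxidants and electrophiles modify KEAP1, NRF2 accumulates, and it binds antioxidant response elements with small MAF proteins. Its known targets make glutathione (Gclc and Gclm), reduce quinones (Nqo1), keep thioredoxin and peroxiredoxins reduced (Txnrd1 and Srxn1) and remove peroxides (Gpx2). Sod1, Sod2, Gpx1 and Cat form the constitutive chain from superoxide to hydrogen peroxide to water, of which Sod2 is also a known target of NF-kappaB. Oxidative stress of acinar cells is an established feature of pancreatitis.

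The start-site windows of the 10 genes were read for the antioxidant response element core, because that is the sequence through which NRF2 acts. RefSeq windows (assembly GRCr8) of 250 bases before and 50 bases after a transcript start were found for all 10 genes, 11 windows in all since Txnrd1 has 2. The core was searched as TGACNNNGC on both strands and was present for 4 of the 10 genes, Gpx2, Gclm, Sod2 and Txnrd1, in 4 of 11 windows, against 12.1% of all 33469 windows. The AP-1 element, searched as TGANTCA, which reads the same on both strands, was present for 1 gene, Srxn1, against 7.33% of all windows. No match overlapped another. A match describes letters in a window and does not show binding. A window without a match does not show that the gene lacks an element. Such an element may lie outside the window or differ from the searched letters. The whole Gpx2 window is shown because Gpx2 is the gene whose values stood apart, and the others as stretches around their matches. Capitals mark the matched letters, which for the response element are its reverse complement.
Gpx2, chr6:101229984-101230283, minus strand: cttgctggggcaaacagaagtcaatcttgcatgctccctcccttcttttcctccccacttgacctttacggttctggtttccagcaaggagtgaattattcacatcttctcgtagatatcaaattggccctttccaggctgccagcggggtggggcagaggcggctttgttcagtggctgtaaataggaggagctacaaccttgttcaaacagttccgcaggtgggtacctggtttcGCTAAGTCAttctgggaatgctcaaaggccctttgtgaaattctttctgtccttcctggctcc
Gclm, chr2:213031943-213031991, plus strand: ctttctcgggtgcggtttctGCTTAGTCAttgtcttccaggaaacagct
Txnrd1, chr7:22755954-22756002, minus strand: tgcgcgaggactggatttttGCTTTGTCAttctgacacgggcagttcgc
Sod2, chr1:50050175-50050223, minus strand: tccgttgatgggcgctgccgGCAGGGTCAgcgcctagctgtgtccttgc
Srxn1, chr3:161064730-161064833, plus strand: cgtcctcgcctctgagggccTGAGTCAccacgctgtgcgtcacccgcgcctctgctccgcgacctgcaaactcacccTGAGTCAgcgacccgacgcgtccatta
The core ended 4 bases before the annotated start of Gpx2, 26 before that of Sod2, 69 before that of Txnrd1 and 163 before that of Gclm.

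The libraries differed in makeup in ways that touch every value below. The 16 acinar cell markers took 50.9% and 46.1% of TPM in the TP+hucMSC-Exs libraries, 59.1% and 16.0% in the TP libraries, with 64.7% and 61.9% in the Control libraries, so the labelled tissue showed its defining transcripts in all 6. TP replicate 2 stood apart. It held 6559 TPM of 8 adipocyte markers against at most 44.5 TPM in any other library, and 4736 TPM of 9 macrophage markers against at most 767 TPM. The Control libraries also differed from each other. Control replicates 1 and 2 held 0.09 and 28.6 TPM of lymphocyte markers, 18.8 and 144 TPM of macrophage markers, and 441 and 2359 TPM of red cell markers. The median of the 11477 genes with a mean of at least 1 TPM lay above the Control mean by 1.08 and 1.35 (log2) in the TP+hucMSC-Exs libraries, by -0.02 in TP replicate 1 and by 3.09 in TP replicate 2. Each gene is therefore given as TPM and also relative to the median gene, as log2(TPM + 0.5) minus the median of those 11477 genes in the same library. In bulk tissue, fewer cells of a type and less RNA per cell cannot be told apart.

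**Figure D1:**
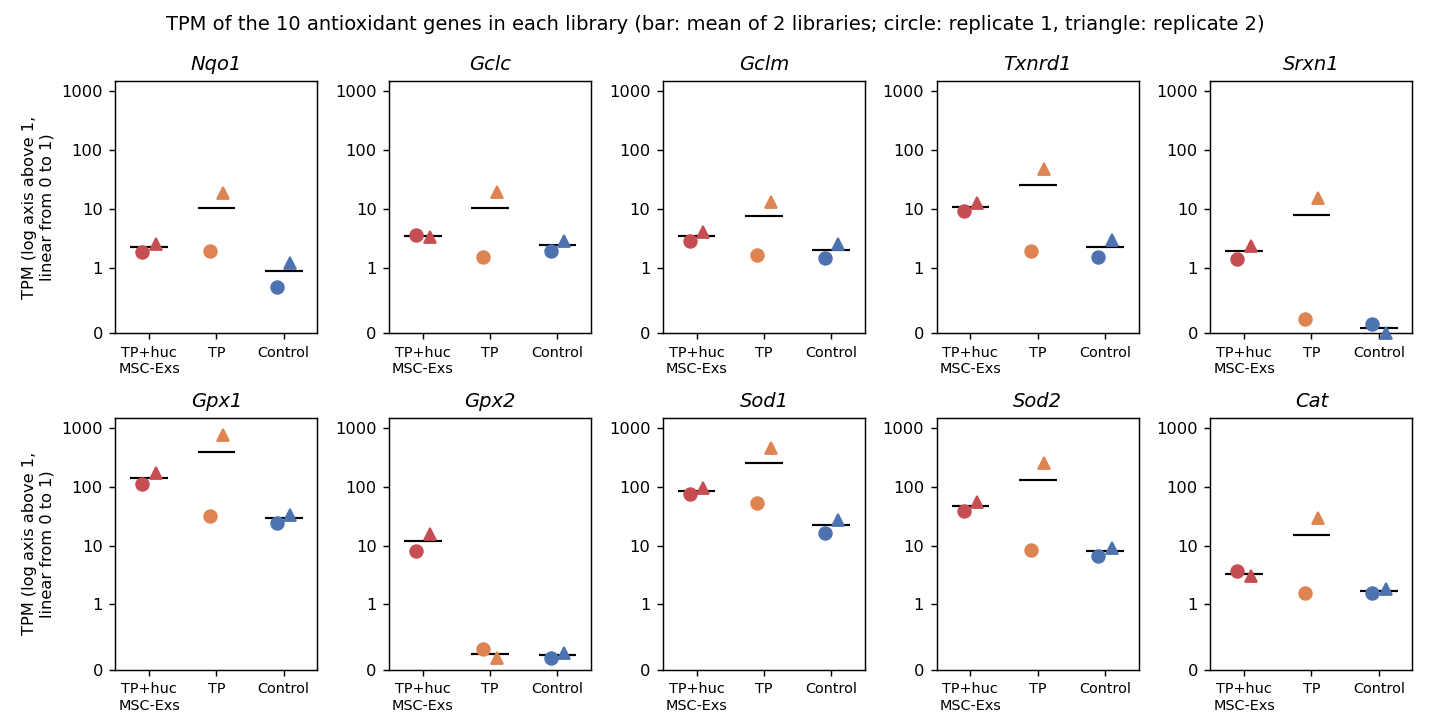
TPM of each of the 10 genes (vertical axis, logarithmic above 1 TPM and linear below) in the TP+hucMSC-Exs, TP and Control libraries, with replicate 1 as a circle, replicate 2 as a triangle and the mean of both as a bar. For 9 genes the highest point is TP replicate 2, and for Gpx2 the highest points are the TP+hucMSC-Exs libraries at 8.09 and 16.0 TPM.

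Gpx2 (ENSRNOG00000055672), a selenium-dependent glutathione peroxidase known chiefly from the epithelium of the gut, had 8.09 and 16.0 TPM in the TP+hucMSC-Exs libraries, against 0.31 and 0.18 TPM in the TP libraries and 0.18 and 0.26 TPM in the Control libraries. Both treated libraries lay above the other 4, and the TP and Control libraries overlapped. Gpx2 averaged 12.0 ± 5.56 TPM in the TP+hucMSC-Exs group, 0.245 ± 0.0919 TPM in the TP group and 0.22 ± 0.0566 TPM in the Control group (SD, n = 2 each). The mean TPM was 49.1 times that of the TP group and 54.6 times that of the Control group. Relative to the median gene, Gpx2 stood at 1.21 and 1.87 (log2) in the treated libraries, at -1.10 and -4.47 in the TP libraries, with -1.06 and -1.52 in the Control libraries. A gene at 0 TPM stands at -4.91 in TP replicate 2, so that -4.47 lies near the floor of the scale there. In TP replicate 2, where the other 9 genes had their highest TPM, Gpx2 ranked above 0.9% of the tested genes, and in the treated libraries it ranked above 74.4% and 83.4%. Gpx2 entered the tested genes only through its treated libraries, so that its difference there is in part a condition of its being tested.

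Gpx1 (ENSRNOG00000048812), the widely expressed glutathione peroxidase of cytosol and mitochondria, had the highest mean TPM of the 10 genes in all 3 groups. It had 113 and 174 TPM in the TP+hucMSC-Exs libraries, 32.5 and 749 TPM in the TP libraries, and 24.6 and 33.6 TPM in the Control libraries. TP replicate 1 lay within the Control range, and TP replicate 2 above all other libraries. Against the median gene Gpx1 stood at 4.93 and 5.28 in the treated libraries, 4.25 and 5.64 in the TP libraries, with 4.14 and 3.97 in the Control libraries. The ratio of Gpx2 to Gpx1 within a library, which does not depend on the total to which TPM are scaled, was 0.0716 and 0.0917 in the treated libraries, whereas the TP libraries had 0.00953 and 0.000240 and the Control libraries 0.00732 and 0.00774. Both treated libraries lay above the other 4 in this ratio.

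Genes of epithelium had values that ran with those of Gpx2. Each gene was set beside the others by the root mean square difference of its values relative to the median gene, after centring on its own mean over the 6 libraries. Among 9937 other genes with a proper symbol, the one closest to Gpx2 was Krt8, a keratin of simple epithelium, at 0.29 (log2). Krt8 had 412 and 519 TPM in the TP+hucMSC-Exs libraries, 49.0 and 35.6 TPM in the TP libraries, and 32.2 and 34.9 TPM in the Control libraries. Within a difference of 0.5 there were 11 genes for Gpx2, against between 992 and 6263 genes for each of the other 9. The bound is an absolute difference, so this count depends on how widely a gene varied relative to the median gene. Genes that varied little have many others within it. The 7 duct cell markers summed to 219 and 324 TPM in the treated libraries, 32.9 and 572 TPM in the TP libraries, and 20.03 and 21.6 TPM in the Control libraries, and none of the 7 was at 0 in any library. Of the 572 TPM in TP replicate 2, 558 TPM were Spp1, which macrophages also express. Another marker of the list, the epithelial adhesion protein Epcam, had 78.8 and 111 TPM in the treated libraries, 14.9 and 3.71 TPM in the TP libraries, and 10.3 and 11.4 TPM in the Control libraries. The part of duct or other epithelial cells in the Gpx2 values was not tested. The sums of macrophage, neutrophil and adipocyte markers were highest in TP replicate 2, where Gpx2 was at 0.18 TPM.

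**Figure D2:**
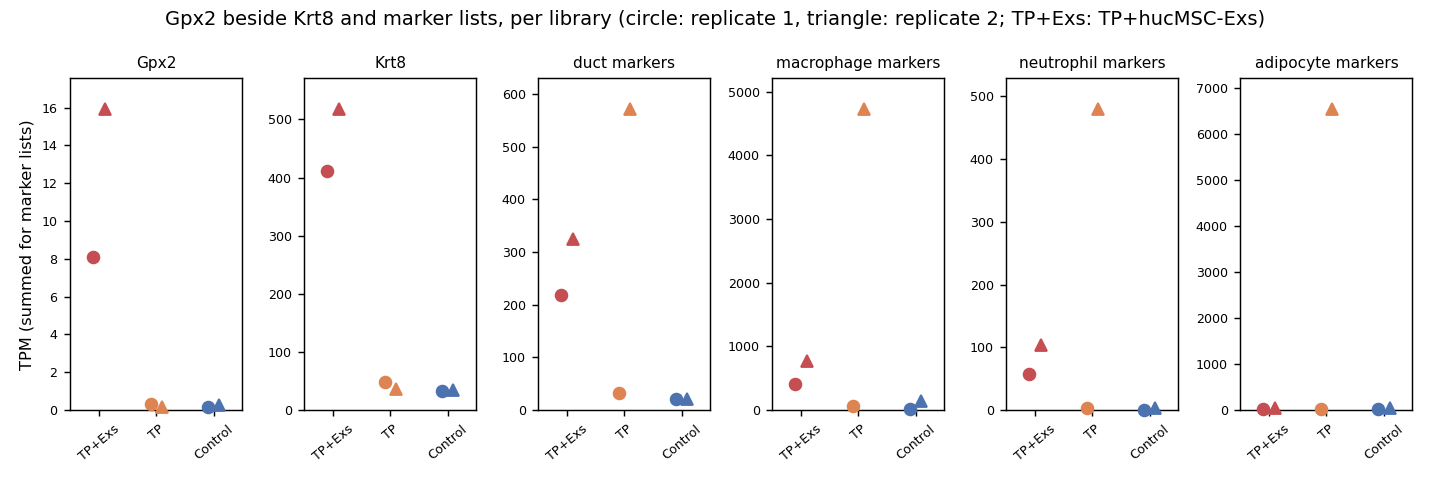
Levels in TPM (vertical axis, linear and starting at 0, with its own scale in each panel) of Gpx2, of Krt8 and of the summed duct, macrophage, neutrophil and adipocyte markers in the TP+hucMSC-Exs, TP and Control libraries, replicate 1 as a circle and replicate 2 as a triangle. Gpx2 and Krt8 are highest in both treated libraries, while the 4 sums are highest in TP replicate 2.

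Gclc (ENSRNOG00000006302) and Gclm (ENSRNOG00000013409) encode the catalytic and the modifier subunit of glutamate-cysteine ligase, the rate-limiting enzyme of glutathione synthesis. Gclc had 3.67 and 3.39 TPM in the TP+hucMSC-Exs libraries, 1.54 and 19.2 TPM in the TP libraries, and 1.96 and 2.88 TPM in the Control libraries. Gclm had 2.90 and 3.99 TPM in the treated libraries, 1.62 and 13.3 TPM in the TP libraries, and 1.45 and 2.5 TPM in the Control libraries. Both subunits thus had more TPM in both treated libraries than in either Control library, but stood lower against the median gene. Gclc stood at 0.17 and -0.21 (log2) in the treated libraries, 0.23 and 0.39 in the TP libraries, with 0.79 and 0.63 in the Control libraries. Gclm stood at -0.13 and 0.00 in the treated libraries, 0.28 and -0.12 in the TP libraries, and 0.46 in each Control library. The ratio of Gclm to Gclc averaged 0.984 ± 0.274 in the TP+hucMSC-Exs group, 0.872 ± 0.255 in the TP group and 0.804 ± 0.0907 in the Control group (SD, n = 2 each), and the libraries of all groups overlapped.

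Nqo1 (ENSRNOG00000012772), an NADPH-dependent quinone reductase and a standard readout of NRF2, had 1.88 and 2.56 TPM in the TP+hucMSC-Exs libraries, 1.94 and 19.0 TPM in the TP libraries, and 0.70 and 1.21 TPM in the Control libraries. Its level against the median gene was -0.64 and -0.56 in the treated libraries, 0.49 and 0.38 in the TP libraries, with -0.24 and -0.35 in the Control libraries. On this scale the TP libraries lay above both other groups and close to each other, although their TPM differed widely. The ratio of Nqo1 to Sod1 was 0.0250 and 0.0263 in the treated libraries, whereas the TP libraries had 0.0367 and 0.0414 and the Control libraries 0.0420 and 0.0440. Both treated libraries lay below the other 4 in this ratio.

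Txnrd1 (ENSRNOG00000009088), the cytosolic thioredoxin reductase, had 9.06 and 12.46 TPM in the TP+hucMSC-Exs libraries, 1.95 and 48.6 TPM in the TP libraries, and 1.54 and 2.95 TPM in the Control libraries. Its level against the median gene was 1.37 and 1.53 in the treated libraries, 0.49 and 1.71 in the TP libraries, with 0.52 and 0.66 in the Control libraries. The treated libraries lay above the Control libraries on both scales and between the TP libraries on both. Srxn1 (ENSRNOG00000031167), sulfiredoxin, which repairs over-oxidised peroxiredoxins, was the least abundant of the 10 genes in the treated and Control groups. It had 1.41 and 2.38 TPM in the treated libraries, 0.21 and 15.4 TPM in the TP libraries, and 0.14 and 0 TPM in the Control libraries. Against the median gene Srxn1 stood at -0.96 and -0.64 in the treated libraries, -1.29 and 0.08 in the TP libraries, with -1.15 and -2.12 in the Control libraries. On both scales the treated libraries lay above the Control libraries and between the TP libraries, and 1 Control library was listed at 0. Srxn1 reached the mean needed for testing only through TP replicate 2.

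Sod1 (ENSRNOG00000002115), the copper-zinc superoxide dismutase of the cytosol, had 75.3 and 97.3 TPM in the TP+hucMSC-Exs libraries, 52.9 and 459 TPM in the TP libraries, and 16.7 and 27.5 TPM in the Control libraries. Relative to the median gene it stood at 4.35 and 4.44 in the treated libraries, at 4.94 in each TP library, and at 3.60 and 3.68 in the Control libraries. The 3 groups did not overlap on that scale, with TP highest and Control lowest. Sod2 (ENSRNOG00000019048), the manganese superoxide dismutase of mitochondria, had 38.8 and 54.7 TPM in the treated libraries, 8.28 and 251 TPM in the TP libraries, and 6.79 and 9.17 TPM in the Control libraries. Its level against the median gene was 3.41 and 3.62 in the treated libraries, 2.34 and 4.06 in the TP libraries, with 2.36 and 2.15 in the Control libraries. TP replicate 1 thus resembled TP replicate 2 in Sod1 and the Control libraries in Sod2. The ratio of Sod2 to Sod1 was 0.516 and 0.563 in the treated libraries, 0.157 and 0.546 in the TP libraries, with 0.407 and 0.333 in the Control libraries. Cat (ENSRNOG00000008364), the peroxisomal catalase, had 3.64 and 3.01 TPM in the treated libraries, 1.54 and 29.2 TPM in the TP libraries, and 1.58 and 1.81 TPM in the Control libraries. Its level against the median gene overlapped between the treated libraries, at 0.16 and -0.36, and the Control libraries, at 0.55 and 0.08, while the TP libraries stood at 0.23 and 0.99.

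**Figure D3:**
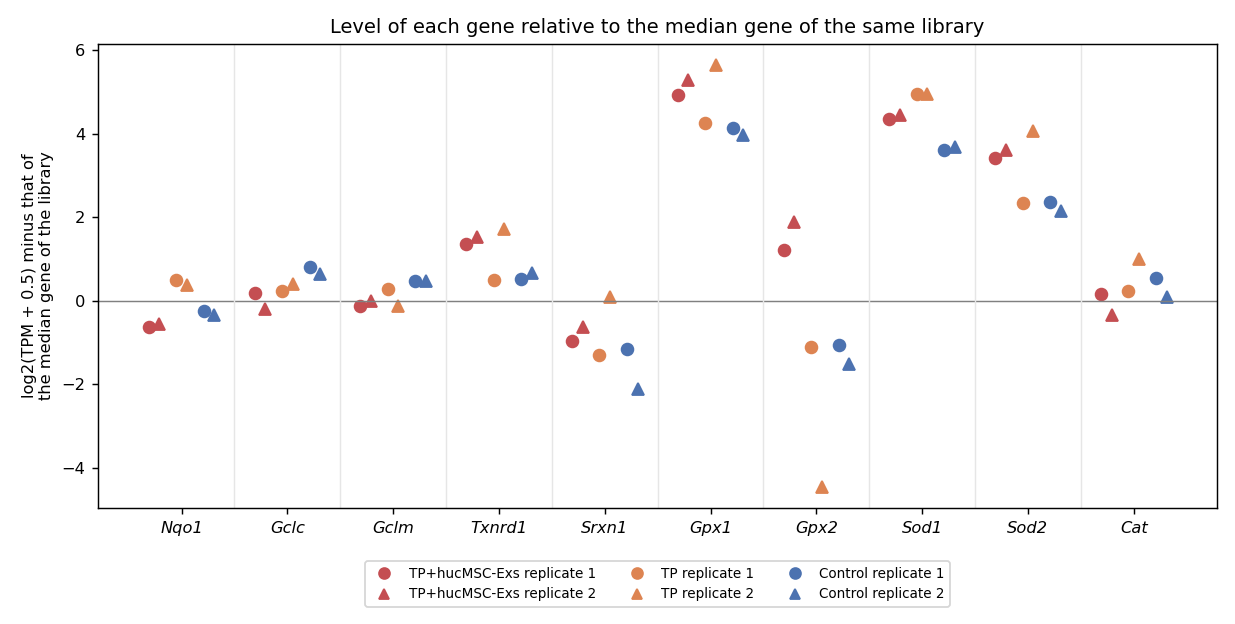
Level of each of the 10 genes relative to the median gene of its library (vertical axis, log2), with the TP+hucMSC-Exs, TP and Control libraries from left to right within a gene. Sod1 separates the 3 groups, Gpx2 is high in the treated libraries alone, and Gclc and Gclm are highest in the Control libraries.

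**Figure D4:**
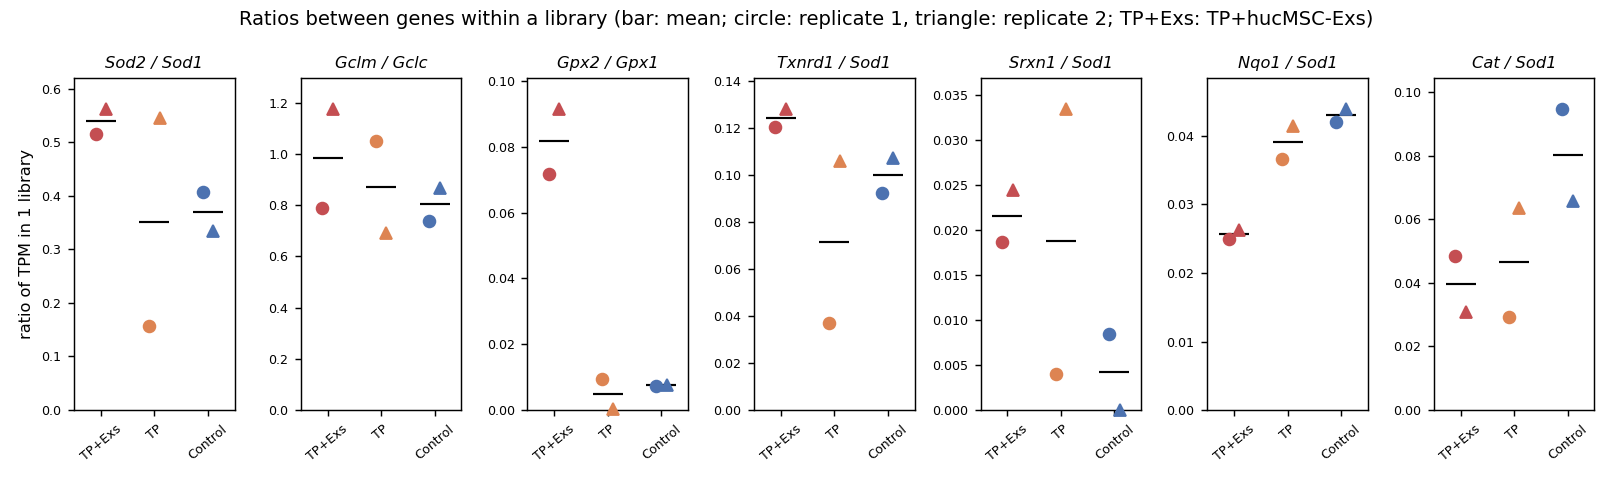
Ratios of the TPM of 2 genes within a library (vertical axes from 0) for 7 pairs, in the TP+hucMSC-Exs, TP and Control libraries, with replicate 1 as a circle, replicate 2 as a triangle and the mean of both as a bar. Gpx2 to Gpx1 is above 0.07 in both treated libraries and below 0.01 in the other 4.

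The genes closest in pattern to the other 9 lay nearer to them: Gon4l to Gclm at 0.032 (log2), Gpr137b to Txnrd1 at 0.046, Pdhx to Gclc at 0.064, Tmem120a to Gpx1 at 0.069 and to Sod2 at 0.075, Necab3 to Nqo1 at 0.081, Cgref1 to Cat at 0.095, Nkain1 to Srxn1 at 0.111 and Cmc2 to Sod1 at 0.14. Tmem120a was thus nearest to both Gpx1 and Sod2, with 17.7 and 25.3 TPM in the treated libraries, 4.08 and 112 TPM in the TP libraries, and 3.10 and 4.29 TPM in the Control libraries.

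The order of the genes by TPM was similar at the top in all groups. In the TP+hucMSC-Exs group Gpx1, Sod1 and Sod2 led without overlap between their libraries, followed by Gpx2 and Txnrd1, which overlapped, then by Gclc, Gclm and Cat, which overlapped, and by Nqo1 and Srxn1, which overlapped. In the TP group neighbours in the order overlapped throughout, except that Gpx2 lay below its neighbour Gclm. Gpx2, at 0.18 to 0.31 TPM, still overlapped with Srxn1, at 0.21 to 15.4 TPM. In the Control group Gpx1 and Sod1 overlapped, Sod2 came next, Gclc, Txnrd1, Gclm and Cat overlapped in turn, and Nqo1, Gpx2 and Srxn1 followed without overlap.

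Treated and untreated crushed pancreas were compared to see what followed the exosomes. Gpx2 had both treated libraries above both TP libraries, on the TPM scale and relative to the median gene. For 8 other genes both treated libraries lay between the TP libraries in TPM, and for Nqo1 1 treated library lay just below TP replicate 1. Relative to the median gene Nqo1, Gclc, Sod1 and Cat had both treated libraries below both TP libraries. Of all 11477 genes, 5.09% lay above in both libraries as TPM, and relative to the median gene 17% lay above and 25% below, set against 1 and 4 of the 10 genes; 1.62% of all genes lay below as TPM, and none of the 10. In limma, fitted on log2(TPM + 0.5) of all tested genes with Benjamini-Hochberg adjustment, 0 of the 10 genes passed an adjusted p of 0.05, beside 0.0523% of all genes called higher and 0.0174% lower. At an unadjusted p below 0.05 there was 1 of the 10, Gpx2, beside 0.758% of all genes higher and 0.566% lower. With values relative to the median gene 0 of the 10 and 0 of all genes passed, and at an unadjusted p below 0.05 there were 2 of the 10, Gpx2 higher and Nqo1 lower, beside 5.01% of all genes higher and 6.36% lower. With only these 2 groups fitted, 0 of the 10 passed beside 0.00871% of all genes called higher. Gpx2 had a log2 fold change of 4.002 ± 1.47 (SE, n = 2 per group, limma adjusted p = 1), and of 4.33 ± 1.12 relative to the median gene (limma adjusted p = 0.377). Nqo1 had a log2 fold change of -1.36 ± 1.43 (limma adjusted p = 1), and of -1.03 ± 0.19 relative to the median gene (limma adjusted p = 0.331). The median over the 10 genes was -0.49 as TPM and -0.17 relative to the median gene, beside -0.38 and -0.05 over all tested genes. The second of these turned to 0.12 without TP replicate 2 and was -0.54 without TP replicate 1, beside -0.13 and 0 over all tested genes.

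Which TP library was kept decided most of the calls. Without TP replicate 1, limma placed 9 of the 10 genes lower and Gpx2 higher, where 79.5% of all genes were called lower and 3.62% higher. Gpx2 had a log2 fold change of 4.13 there (limma adjusted p = 0.00416). Without TP replicate 2, Gpx2 and Sod2 were called higher (2 of 10), where 1.73% of all genes were called higher and 0.174% lower, with log2 fold changes of 3.88 (limma adjusted p = 0.0445) and 2.41 (limma adjusted p = 0.0493). Gpx2 passed the filter only through its treated libraries, so its calls are in part a condition of its being tested. The same holds for Srxn1 without TP replicate 1, since Srxn1 passed only through TP replicate 2. The remaining TP library was assumed to vary like the other groups in both fits. Sod2 therefore lay lower against TP replicate 2 (by a log2 fold change of -2.43) and higher against TP replicate 1, while Gpx2 lay higher against either.

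Setting TP+hucMSC-Exs against Control shows crushed, exosome-treated pancreas beside pancreas that was only handled. These differences use the same treated libraries as the previous ones. All 10 genes had more TPM in both treated libraries than in either Control library, where 86.9% of all tested genes did too and 1.63% had less. On the scale of the median gene, Txnrd1, Srxn1, Gpx1, Gpx2, Sod1 and Sod2 lay above the Control libraries, 6 of 10 against 27.6% of all genes, and Nqo1, Gclc and Gclm lay below, 3 of 10 against 40.8%. In limma 0 of the 10 passed, beside 0.209% of all genes called higher and 0% lower. At an unadjusted p below 0.05 there was 1 of the 10, Gpx2, beside 2.85% of all genes higher and 0.0958% lower. With values relative to the median gene 0 of the 10 and 0 of all genes passed, and at an unadjusted p below 0.05 there were 2, Sod1 higher and Gclc lower, beside 5.87% of all genes higher and 6.08% lower. The limma log2 fold change of Gpx2 was 4.05 ± 1.47 (SE, n = 2 per group, limma adjusted p = 0.72), and 2.83 ± 1.12 relative to the median gene (limma adjusted p = 0.422). Sod2 had 2.47 ± 1.38 and, relative to the median gene, 1.26 ± 0.60 (limma adjusted p = 0.8 and 0.467). Gclc had 0.48 ± 1.43 and, relative to the median gene, -0.73 ± 0.23 (limma adjusted p = 0.837 and 0.387), so that its direction depended on the scale. The median over the 10 genes was 2.01 as TPM and 0.80 relative to the median gene, beside 1.09 and -0.12 over all tested genes.

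The spread in this comparison was shared with the TP libraries, which do not enter its difference. When only the treated and Control libraries were fitted, 6 of the 10 genes (the same 6 that lay above relative to the median gene) were called higher with limma adjusted p between 0.0106 and 0.019, where 52.3% of all genes were called higher and 0.505% lower. Gpx2, 1 of these, passed the filter only through its treated libraries, so its calls here are in part a condition of its being tested. Leaving out TP replicate 1 from the joint fit called the same number, 6, where 52.1% of all genes were called higher and 0.479% lower, and leaving out TP replicate 2 also called 6, where 51.9% were higher. With values relative to the median gene and TP replicate 2 left out, 5 of the 10 were called higher, where 6.7% of all genes were, and 0 lower, where 4.13% were. These were Gpx2, Sod2, Txnrd1, Gpx1 and Sod1, with limma adjusted p between 0.0179 and 0.0457 and the same log2 differences as with all libraries. The macrophage markers, which summed to 414 and 767 TPM in the treated libraries against 18.8 and 144 TPM in the Control libraries, and the neutrophil markers, with 56.9 and 103 TPM against 0.5 and 3.13 TPM, also stood higher in the treated libraries, and their part in these values was not tested.

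TP against Control shows the crush without exosomes, with TP and Control libraries that the other comparisons also use. TP replicate 1 lay within the Control range in TPM for Gclm, Txnrd1, Gpx1 and Sod2, below it for Gclc and Cat, and above it for Nqo1, Srxn1, Gpx2 and Sod1, while TP replicate 2 lay above both Control libraries for 9, all but Gpx2. Sod1, Nqo1 and Srxn1 had both TP libraries above both Control libraries as TPM, 3 of 10 against 23.1% of all genes, and none lay below, against 1.09%. Of these, Srxn1 had only 0.21 TPM in TP replicate 1, against 0.14 and 0 TPM in the Control libraries. Srxn1 passed the filter only through TP replicate 2, so its values here are in part a condition of its being tested. Relative to the median gene Sod1, Nqo1 and Gpx1 lay above, 3 of 10 against 16.6%, and Gclc and Gclm lay below, 2 of 10 against 16.8%. In limma 0 of the 10 passed, beside 0.0523% of all genes called higher and 0% lower. At an unadjusted p below 0.05 there was 1 of the 10, Sod1, beside 3.96% of all genes higher and 0.105% lower. With values relative to the median gene 0 of the 10 and 0 of all genes passed, and at an unadjusted p below 0.05 there were 2, Sod1 and Nqo1, both higher, beside 2.56% of all genes higher and 2.01% lower. Sod1 had a log2 fold change of 2.84 ± 1.30 (SE, n = 2 per group, limma adjusted p = 0.555), and of 1.30 ± 0.23 relative to the median gene (limma adjusted p = 0.66). Gpx2 had a log2 fold change of 0.05 ± 1.47 (limma adjusted p = 0.981). This SE came from the variance trend over all genes and was far larger than the difference. Relative to the median gene, Gpx2 had -1.49 ± 1.12 (limma adjusted p = 0.66). That value rests on levels of 0.31 TPM or less and on TP replicate 2, where Gpx2 lay near the floor of the scale. The median over the 10 genes was 2.16 as TPM and 0.62 relative to the median gene, beside 1.5 and -0.04 over all tested genes. Relative to the median gene it was 0.13 without TP replicate 2 and 0.90 without TP replicate 1. Without TP replicate 1, 9 of the 10 genes were called higher, where 91.5% of all genes were called higher and 1.78% lower. Without TP replicate 2, 0 were, beside 0.174% of all genes called higher, and Gclc, Gclm, Txnrd1 and Cat had log2 fold changes below 0, from -0.10 to -0.50. Sod1 had 1.28 without TP replicate 2 and 4.39 without TP replicate 1, and Nqo1 had 0.77 and 3.77. For Sod2 the values were 0.065 and 4.90, for Gpx1 0.18 and 4.68, and for Srxn1 0.33 and 4.81.

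**Figure D5:**
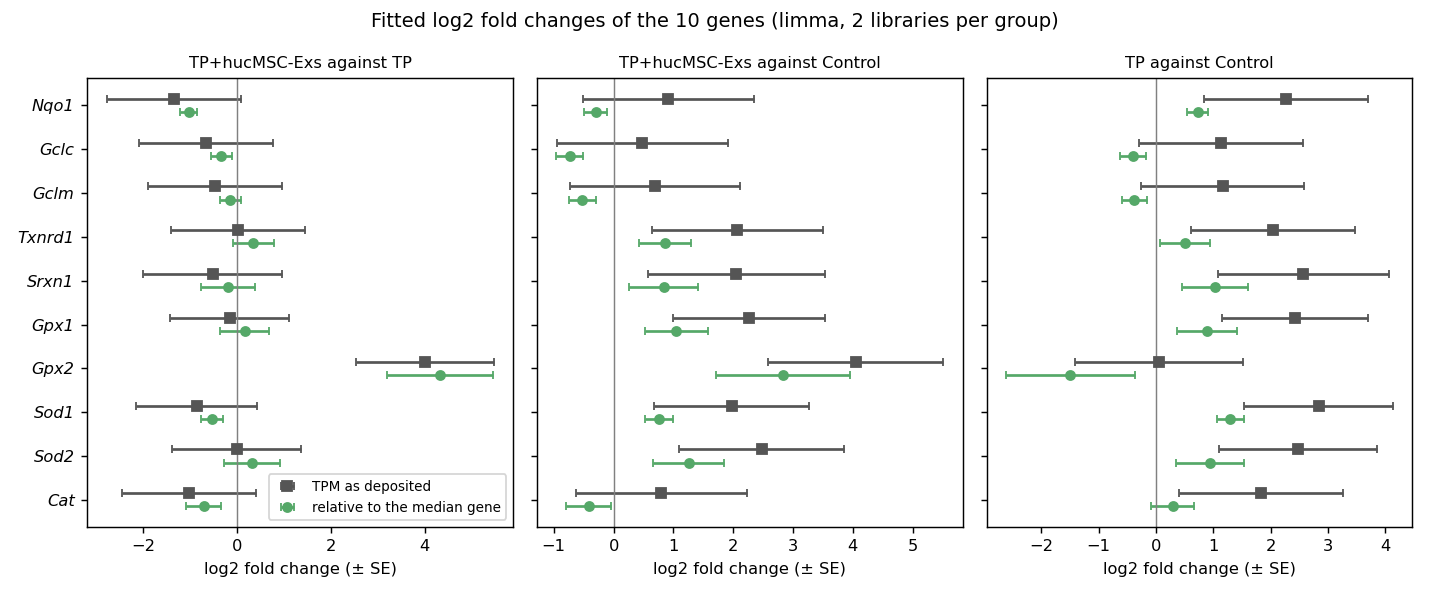
Log2 fold changes of the 10 genes (horizontal axes) with their SE, from limma, for TP+hucMSC-Exs against TP, TP+hucMSC-Exs against Control and TP against Control, with TPM as deposited (squares) and relative to the median gene (circles). Gpx2 stands at 4.002 and 4.05 in the comparisons of treated libraries and at 0.05 in TP against Control, and none of the 10 passed an adjusted p of 0.05 on either scale.

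Other genes of the pathway were read from 8 lists of 92 genes, of which 79 were tested. None of the 79 passed with limma in any of the 3 comparisons. Among the 9 regulators of NRF2, the median relative to the median gene was 0.29 for TP+hucMSC-Exs against Control, 0.10 against TP, and 0.07 for TP against Control. Sqstm1, the autophagy receptor p62 that binds KEAP1, was one of the most abundant. Its TPM were 116 and 137 (treated), 20.9 and 148 (TP), and 17.6 and 23.1 (Control). Relative to the median gene its levels were 4.98 and 4.94 (treated), 3.62 and 3.30 (TP), and 3.67 and 3.43 (Control). On that scale both treated libraries lay above all others. Of all tested genes, 17% lay above both TP libraries and 27.6% above both Control libraries. Rbx1, with the highest mean TPM of the list, stood at 5.13 and 5.27 (treated), 4.85 and 5.36 (TP), and 4.73 and 4.97 (Control). Its treated libraries lay between the TP libraries. Nfe2l2 stood at 1.77 and 1.79 (treated), 1.73 and 1.72 (TP), and 1.08 and 1.11 (Control), so that treated and TP were nearly equal. The 11 tested genes of glutathione supply and use had medians of 0.03, -0.17 and 0.26 in the same order, and the 10 of the thioredoxin and peroxiredoxin list 0.36, -0.03 and 0.47. Within that list Prdx4, the peroxiredoxin of the endoplasmic reticulum, had the highest mean TPM, and it was highest in the Control libraries, with 243 and 226 TPM in the treated libraries, 270.4 and 137 TPM in the TP libraries, and 304 and 327 TPM in the Control libraries. Prdx5 had 89.1 and 160 TPM in the treated libraries, 19.7 and 742 TPM in the TP libraries, and 12.7 and 14.7 TPM in the Control libraries.

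The 20 tested further NRF2 targets and NADPH-supplying enzymes had medians relative to the median gene of 0.24 for TP+hucMSC-Exs against Control, -0.24 against TP, and 0.24 for TP against Control. Their most abundant genes were the ferritin subunits Fth1 and Ftl1. Fth1 had 396 and 524 TPM in the treated libraries, 253 and 3555 TPM in the TP libraries, and 164 and 202 TPM in the Control libraries. Against Control, Hmox1 had the largest log2 fold changes of the list, 4.11 in the treated and 5.39 in the TP group. The limma adjusted p were 0.575 and 0.157. It had 11.7 and 29.2 TPM in the treated libraries, 5.67 and 346 TPM in the TP libraries, and 0.08 and 1.59 TPM in the Control libraries. Relative to the median gene it stood at 1.72 and 2.72, 1.83 and 4.53, and -1.29 and -0.06 in that order. On that scale 15 of 20 genes of the list lay above 0 in the treated and 12 in the TP group. Gstp1, Ephx1 and Cbr1, chosen after their values were seen, stood higher relative to the median gene in both treated libraries than in any other library. Of all tested genes, 17% lay above both TP libraries on that scale and 27.6% above both Control libraries. The share above all 4 was not counted. Gstp1 reached 5.65 and 5.81 with treatment, against at most 5.25 elsewhere. For Ephx1 these levels were 3.37 and 3.43 against at most 2.74, and for Cbr1 0.57 and 1.72 against at most 0.39. Fth1 went the other way against TP, at 6.74 and 6.86 beside 7.19 and 7.89, as did 25% of all tested genes. Enzymes that produce oxidants, among them subunits of the phagocyte NADPH oxidase, had the medians farthest above the median gene against Control, 1.69 in the treated group with 6 of 7 above 0 and 1.48 in the TP group with 7 of 7 above 0. Over all tested genes 4773 of 11477 were above 0 in the first and 5358 in the second. The oxidase subunit Cyba had 41.1 and 66.1 TPM in the treated libraries, 7.03 and 384 TPM in the TP libraries, and 2.01 and 11.2 TPM in the Control libraries. The TP median rested on TP replicate 2: without it the median was 0.16 with 5 of 7 above 0, and Rac2 and Mpo lay below 0. Relative to the median gene, TP replicate 1 lay within or below the Control range for Cyba, Ncf1, Ncf4, Rac2 and Mpo. Control replicate 2 set the upper end of that range for Cyba, Ncf1, Ncf4 and Rac2. Rac2 had 18.7 TPM there and 0.37 TPM in Control replicate 1. Mpo, the peroxidase of neutrophil granules, passed the filter only through TP replicate 2, with 13.2 TPM there and at most 0.17 TPM in any other library. Phagocytes express the oxidase subunits. The macrophage and neutrophil sums were above both Control libraries in both treated libraries and in TP replicate 2, while TP replicate 1, with 57.0 TPM and 3.02 TPM, lay within the Control range for both. Their part in these values was not tested. The 4 partners of the superoxide dismutases, among them Sod3, had medians of -0.53, -0.41 and 0.03 in the order used above. Peroxisomal genes, which share the organelle of Cat, had a median of -0.50 in TP+hucMSC-Exs against Control, with 1 of 8 above 0. Nuclear genes of mitochondria, which share the organelle of Sod2, had a median of -0.10 in that comparison with 5 of 10 above 0, beside 1.26 for Sod2. Sod3, the extracellular superoxide dismutase, had 3.48 and 2.59 TPM in the treated libraries, 2.34 and 147 TPM in the TP libraries, and 1.87 and 2.61 TPM in the Control libraries, and so overlapped between treated and Control libraries where Sod1 and Sod2 did not.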

How the data were processed

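Per the labels' protocols, a column kit gave the RNA and a SMARTer mRNA kit the libraries. The authors deposited 1 table of TPM per gene for 6 libraries, with group means that equal the library means and were not used. A name for the aligner or counter is not given in the sources used here. GRCm38 and mm10, which are mouse builds, appear in the submitters' processing notes, although 32883 of 34001 genes carry rat Ensembl identifiers. Gene length (unit other) was not used. TPM keep no depth, so no counting error is given. Libraries were grouped by title, and the number in the TP column names is not explained by any label.

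The 11477 genes whose mean reached 1 TPM, among them all 10 members, were fitted on log2(TPM + 0.5) with limma 3.58.1 in R 4.3.3, 1 model over 3 groups with a variance trend and 3 residual degrees of freedom, and Benjamini-Hochberg adjustment over all tested genes at 0.05. The median SE was 1.43, with infinite prior degrees of freedom, and 0.33 relative to the median gene. In the fit on TPM the SE of a gene therefore came from the variance trend over all genes, and not from its own spread. With 2 rats against 2 an exact two-sided permutation test cannot go below 0.333, so none was run. Whether the rats of a group were handled on separate days is not stated. The p-values rest only on the spread between these rats, pooled over genes in the fit on TPM. Fold changes on this scale understate changes of low genes. The analysis was tested on simulated data with the same spread in all genes and libraries. The real libraries correlated at 0.712 in the TP group, 0.968 in the TP+hucMSC-Exs group and 0.939 in the Control group. The simulation does not cover that unequal spread. The members, lists and tests were chosen with earlier results of these data known. Named genes were all members, the most abundant 2 of each pathway list (not all are given), and the gene closest to each member in pattern. Epcam, Spp1, Nfe2l2, Hmox1, Gstp1, Ephx1, Cbr1 and the genes under Other observations were chosen after their values were seen. Alternatives are under the closing section.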

Additional observations from a re-analysis of the deposited data

How the results depend on the processing

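Limma called 6 genes in TP against Control, 8 in TP+hucMSC-Exs against TP and 24 in TP+hucMSC-Exs against Control, and none of the 10 members. With a pseudocount of 0.1 the first count was 14, and Sod2 turned to 0.011 in TP+hucMSC-Exs against TP (log2 fold changes here and below). With a pseudocount of 1 the last count was 12, and Txnrd1 turned to -0.056 in TP+hucMSC-Exs against TP. Without a filter on low values the first 2 counts were 18 and 31. A filter at a mean TPM of 5 left out Nqo1, Gclm, Srxn1 and Gpx2, so it gives no value for them, and its counts, like those without a variance trend, stayed within 1.5 times the first ones. Taking the median over genes of at least 5 TPM, or over genes above 0 in every library, moved no count of members above or below by more than 1.

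With each library centred on its median gene, 0 genes were called in each comparison. In TP against Control, Gclc turned to -0.40, Gclm to -0.38 and Gpx2 to -1.49. In TP+hucMSC-Exs against TP, Gpx1 turned to 0.16 and Sod2 to 0.31. In TP+hucMSC-Exs against Control, Nqo1 turned to -0.30, Gclc to -0.73, Gclm to -0.52 and Cat to -0.42. Quantile normalization also called 0 genes in each, and turned the same genes, to -0.48, -0.42 and -0.48, to 0.22 and 0.38, and to -0.23, -0.81, -0.58 and -0.45 in that order. With TPM rescaled without the acinar markers the first count was 2, and Gpx2 turned to -0.21 in TP against Control, Gpx1 to 0.031 and Sod2 to 0.20 in TP+hucMSC-Exs against TP. The cause of these reversals was not tested.

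Fitting only the 2 groups compared called 0, 1 and 6056 genes, with 6 members in the last. Centring with TP replicate 2 left out called 0, 117 and 1243 genes, with 5 members in the last. It turned Gclc to -0.48, Gclm to -0.17, Txnrd1 to -0.10 and Cat to -0.088 in TP against Control, and Srxn1 to 0.49, Gpx1 to 0.86 and Sod2 to 1.18 in TP+hucMSC-Exs against TP. The 4 values below 0 in TP+hucMSC-Exs against Control were -0.30, -0.73, -0.52 and -0.42, as with all libraries.

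Leaving out 1 library at a time gave 0 to 10706 genes and 0 to 9 members in TP against Control, 0 to 9537 genes and 0 to 10 members in TP+hucMSC-Exs against TP, and 1 to 6031 genes and 0 to 6 members in TP+hucMSC-Exs against Control. The upper counts in all 3 came without TP replicate 1. In TP against Control the log2 fold change ranged from -0.10 to 3.76 for Cat, -0.50 to 2.78 for Gclc, -0.19 to 2.51 for Gclm, -0.080 to 0.17 for Gpx2 and -0.11 to 4.21 for Txnrd1. The other 5 kept their sign but ranged from 1.28 to 4.39 for Sod1, 0.065 to 4.90 for Sod2, 0.18 to 4.68 for Gpx1, 0.33 to 4.81 for Srxn1 and 0.77 to 3.77 for Nqo1, all lowest without TP replicate 2. In TP+hucMSC-Exs against TP it ranged from -2.96 to 0.90 for Cat, -2.29 to 0.98 for Gclc, -1.82 to 0.88 for Gclm, -2.41 to 2.09 for Gpx1, -2.85 to 0.15 for Nqo1, -2.42 to 0.69 for Sod1, -2.43 to 2.41 for Sod2, -2.76 to 1.72 for Srxn1 and -2.14 to 2.18 for Txnrd1. Gpx2 stayed above 0 in both comparisons of treated libraries in every alternative run that gave it a value.

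With the replicate number as a block, 10, 22 and 35 genes were called and 0 members. Deviations of same-numbered libraries correlated at 0.279 (Control and TP), 0.08 (Control and TP+hucMSC-Exs) and 0.135 (TP and TP+hucMSC-Exs). The numbers stand for separate rats and were not used as pairs in the main fit. Whether same-numbered libraries shared a processing step cannot be told from these correlations. Depth is unknown, so values below about 1 TPM, as for Gpx2 in 4 libraries and Srxn1 in 3, have no stated counting error.

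The list medians relative to the median gene were also taken without each TP library, a choice made after seeing the data. Without TP replicate 2 the oxidant-producing enzymes moved to 0.16 in TP against Control and turned to 1.02 in TP+hucMSC-Exs against TP, against -0.28 with both. The thioredoxin and peroxiredoxin list moved to 0.19 in TP against Control, and the peroxisomal list turned to -0.45 in TP+hucMSC-Exs against TP.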

Other observations

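Beside Krt8, the 10 genes whose values relative to the median gene ran within 0.5 (log2, root mean square) of those of Gpx2 were Cldn18, Cxadr, Itgb4, Cdh1, Lamb3, Calcb, Cldn7, Krt17, Anxa10 and Krt18. Several are known from epithelium: Krt17 and Krt18 are keratins, Cldn7 and Cldn18 tight-junction claudins, Cdh1 is E-cadherin, Itgb4 and Lamb3 are an integrin and a laminin subunit of hemidesmosomes. Cdh1 had 48.3 and 57.2 TPM in the TP+hucMSC-Exs libraries, 5.27 and 2.28 TPM in the TP libraries, and 4.22 and 5.78 TPM in the Control libraries. Itgb4 had 74.5 and 83.1 TPM in the treated libraries, 2.63 and 5.54 TPM in the TP libraries, and 3.02 and 3.44 TPM in the Control libraries. The list was chosen by its values and carries no test.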
